A study of Rattus norvegicus with 325 samples.

Results

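The Hox genes encode transcription factors with a homeodomain, and rats carry them in 4 clusters, Hoxa, Hoxb, Hoxc and Hoxd. They were taken here as every gene whose symbol reads Hox, a cluster letter from a to d and a number, with count lines of the same symbol summed. This gave 25 of the 17315 symbols of the count files, with 4 members in Hoxa (Hoxa2, Hoxa6, Hoxa9 and Hoxa11), 7 in Hoxb (Hoxb3, Hoxb4, Hoxb5, Hoxb7, Hoxb8, Hoxb9 and Hoxb13), 7 in Hoxc (Hoxc4, Hoxc5, Hoxc8, Hoxc9, Hoxc10, Hoxc11 and Hoxc12) and 7 in Hoxd (Hoxd1, Hoxd3, Hoxd4, Hoxd9, Hoxd10, Hoxd12 and Hoxd13). The other Hox genes were not analysed here. Hoxa6, Hoxa9 and Hoxa11 had 2 count lines each, which were equal in most libraries. In the 3, 12 and 10 libraries where the lines differed, the sums were 0.83 to 1.14, 0.70 to 1.19 and 0.80 to 1.41 times the median of the muscle, so the sum was kept as the level. Total RNA was sequenced from the diaphragm, which lies in the trunk and drives breathing, and from 3 hind limb muscles, the gastrocnemius, the soleus and the tibialis anterior. The animals were untreated male Sprague Dawley rats of 7 ages, the youngest 6 months and the oldest 27, with 9, 12, 18, 21 and 24 months between them. Of the libraries, 83 came from diaphragm, 73 from gastrocnemius, 84 from soleus and 85 from tibialis anterior, with 9 to 13 libraries for each of the 28 groups of muscle and age. Tissues of one age were collected on one day, so age and collection day cannot be told apart. Per the study's supplement, the libraries of one muscle came from as many rats as there were libraries, so p-values of age comparisons within a muscle measure the spread between rats. Comparisons of muscles and interactions treated all libraries as independent, and rats shared between muscles were not modelled in the main fit. Which libraries of different muscles share a rat is not given in the sources used here.

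Within each cluster the genes are numbered by their order along the chromosome, and genes with the same number in different clusters form a paralog group. In the embryo the low-numbered genes are expressed from the hindbrain and neck backwards, while genes of the last groups are expressed in the lower trunk and, from the Hoxa and Hoxd clusters above all, in the outgrowing limbs. Adult cells, in particular fibroblasts and the stem cells of muscle, keep part of the Hox pattern of the body region in which they arose. The precursors of diaphragm muscle migrate from somites of the neck, and those of hind limb muscle from somites of the lower trunk.

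Depth ranged from 17555294 to 85316329 counts a library (median 31879679). The transcripts of Pitx1 and Tbx4, which specify the hind limb, had higher medians in hind limb. Pitx1 had a median of 0.639 CPM (counts-per-million of the scaled library size) in hind limb and 0.0364 in diaphragm, and Tbx4 0.605 and 0.239. Summed over both genes, the soleus (1.61 to 5.47 CPM, median 3.00) lay above the diaphragm (0 to 0.878). The gastrocnemius (0.367 to 2.58, median 1.16) and tibialis anterior (0.0878 to 1.73, median 0.630) overlapped with the diaphragm. Markers of the mesothelium, the cell layer that covers the surfaces of the diaphragm, were higher in diaphragm, with a summed level of 6 genes between 8.06 and 114 CPM (median 50.3), against 0.0948 to 19.8 in gastrocnemius (median 0.980), 0.338 to 4.85 in soleus (median 1.35) and 0.157 to 32.2 in tibialis anterior (median 0.810). The highest sums in gastrocnemius and tibialis anterior came almost wholly from Krt18, which reached 19.5 and 32.1 CPM there. The libraries were bulk samples, in which fewer cells of a type and less RNA per cell cannot be told apart. One diaphragm library, replicate 11 at 18 months, stood apart from the other 82. It held 148 counts of Hoxc10, where no other diaphragm library held more than 17, and 41 counts of Hoxc11, where the others held 0. Its Hoxc10 level was between 3.17% and 3.88% of the median level in each hind limb muscle and its Hoxc11 level between 2.50% and 4.04%, while Hoxc9, Hoxd9, Hoxd10 and Hoxb4 lay within the range of the other diaphragm libraries. Values that rest on it are given with and without it.

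Promoter sequences of 4 members, chosen because they carry the differences between muscles described next, were read from RefSeq (build GRCr8; 250 bases before and 50 after the start of the gene, 5′ to 3′ along the gene's strand). The table held 12 of the 25 members. Hoxa2 lies on the minus strand at chr4:82595643-82595942, Hoxa11 on the minus strand at chr4:82676752-82677051, Hoxd9 on the plus strand at chr3:80007756-80008055 and Hoxd10 on the plus strand at chr3:80001697-80001996. Capitals mark matches, on either strand, to the CCAAT box, to GGGCGG or to a core bound by Hox proteins together with Pbx partners, written TGATNNAT. A match on the other strand appears as its reverse complement. No match to TATAAA was found in these 4 windows.
Hoxa2: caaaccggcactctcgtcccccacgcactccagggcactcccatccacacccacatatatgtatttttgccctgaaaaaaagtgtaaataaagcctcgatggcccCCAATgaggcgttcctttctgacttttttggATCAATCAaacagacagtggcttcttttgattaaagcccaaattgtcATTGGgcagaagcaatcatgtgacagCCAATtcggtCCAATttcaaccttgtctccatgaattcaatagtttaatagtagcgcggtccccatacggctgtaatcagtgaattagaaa
Hoxa11: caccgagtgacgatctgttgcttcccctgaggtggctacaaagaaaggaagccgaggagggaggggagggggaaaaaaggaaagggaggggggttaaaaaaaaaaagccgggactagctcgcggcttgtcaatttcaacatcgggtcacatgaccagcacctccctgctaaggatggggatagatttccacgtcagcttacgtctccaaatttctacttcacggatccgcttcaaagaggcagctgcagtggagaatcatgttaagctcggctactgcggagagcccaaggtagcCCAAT
Hoxd9: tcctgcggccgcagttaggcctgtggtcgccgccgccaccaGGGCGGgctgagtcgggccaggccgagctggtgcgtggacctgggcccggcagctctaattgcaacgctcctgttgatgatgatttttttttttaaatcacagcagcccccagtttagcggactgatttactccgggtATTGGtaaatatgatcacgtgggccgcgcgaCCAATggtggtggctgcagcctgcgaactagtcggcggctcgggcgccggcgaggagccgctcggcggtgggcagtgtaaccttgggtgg
Hoxd10: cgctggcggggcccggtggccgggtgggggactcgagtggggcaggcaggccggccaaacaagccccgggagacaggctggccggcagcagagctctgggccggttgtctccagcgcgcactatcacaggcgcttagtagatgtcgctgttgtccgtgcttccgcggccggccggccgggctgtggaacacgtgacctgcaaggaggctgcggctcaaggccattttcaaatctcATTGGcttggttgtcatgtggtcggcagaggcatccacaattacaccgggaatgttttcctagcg

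The promoter of Hoxa2, a member of the head and neck groups, held 4 CCAAT matches and the only TGATNNAT match, and the promoters of Hoxa11 and Hoxd10 held 1 CCAAT match each. That of Hoxd9 held 2 CCAAT matches and 1 GGGCGG match. Of 33469 rat promoters in the table, 37.5% held CCAAT, 33.1% GGGCGG, 14.2% TATAAA and 9.1% TGATNNAT on either strand. The GC content was 44.7% for Hoxa2, 52.7% for Hoxa11, 62.7% for Hoxd9 and 64.7% for Hoxd10, against a median of 51.7% over all promoters. These matches describe letters in the window and show no binding.

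The Hox code of the diaphragm differed from that of the hind limb at almost every measured member. The low-numbered genes Hoxa2, Hoxb3 and Hoxb4 were 3.80-fold to 11.9-fold higher in diaphragm, whereas Hoxa11, Hoxc10 and Hoxc11 were nearly absent from it. Of the 25 members, 18 passed the filter on low counts, and 16 of the 18 were called between diaphragm and the mean of the 3 hind limb muscles averaged over ages (limma-voom, Benjamini-Hochberg adjusted p under 0.05 and a difference over 1.5-fold), 5 of them higher and 11 lower in diaphragm. Over all 12784 genes tested, 21.5% were called, 14.0% higher and 7.45% lower. The members' median log2 difference was -0.84 and their median absolute difference 2.12, beside -0.0049 and 0.26 over all genes tested. Of the 18, 13 also passed the filter in the diaphragm's own fit. Hoxa11, Hoxc10, Hoxc11, Hoxd3 and Hoxd10 did not and entered through the hind limb, where they are high. These 5 are among the 11 lower members, so that count and the medians rest partly on values that depend on the prior count.

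**Figure D1:**
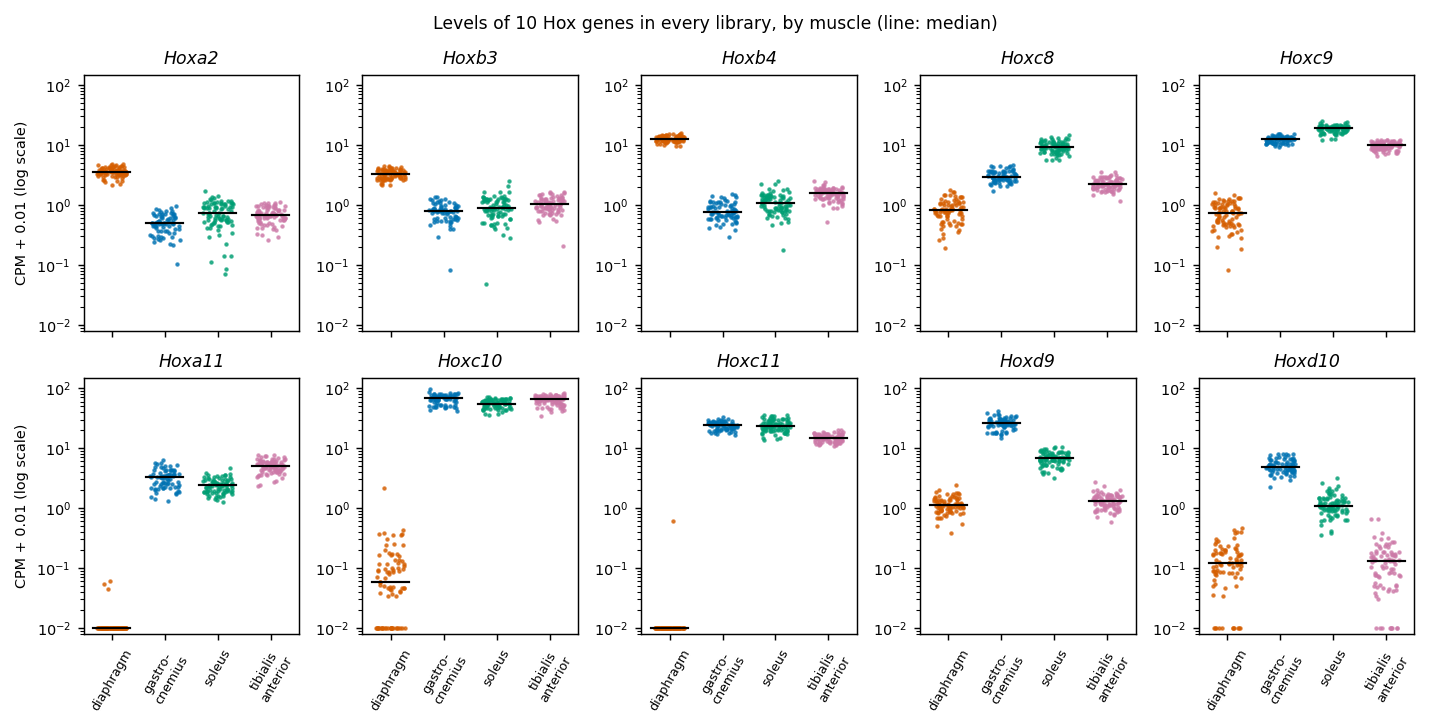
Levels of 10 Hox genes in every library (points), by muscle, in CPM plus 0.01 on a log axis, with the median as a line. Every diaphragm library lay above every hind limb library for Hoxa2 and Hoxb4, and below every one for Hoxa11, Hoxc9, Hoxc10 and Hoxc11, while for Hoxd9 and Hoxd10 the tibialis anterior lay with the diaphragm.

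Among the members higher in diaphragm, Hoxb4, a paralog group 4 gene of the neck region, ranged from 9.49 to 15.6 CPM in diaphragm, with a median of 12.8. Its median was 0.747 CPM in gastrocnemius, 1.06 in soleus and 1.58 in tibialis anterior, and no hind limb library exceeded 2.47. All 83 diaphragm libraries thus lay above all 242 hind limb libraries, with a log2 difference of 3.58 (SE 0.03; limma-voom adjusted p = 3.77e-236). Hoxa2, which patterns the hindbrain and the pharyngeal arches, ranged from 2.16 to 4.90 CPM in diaphragm (median 3.58) and had medians of 0.484, 0.721 and 0.671 CPM in gastrocnemius, soleus and tibialis anterior. No hind limb library reached more than 1.71 CPM, so that the groups did not overlap, and the log2 difference was 2.59 (SE 0.05; limma-voom adjusted p = 2.9e-149). Hoxb3 ranged from 2.16 to 4.38 CPM in diaphragm (median 3.30), against medians of 0.792, 0.871 and 1.03 CPM in the same 3 muscles. It was above every gastrocnemius and tibialis anterior library and overlapped with the soleus, where the highest library had 2.47 CPM, and its log2 difference was 1.92 (SE 0.05; limma-voom adjusted p = 1.42e-124).

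Hoxb5 and Hoxb7, which belong to the middle of the cluster, were higher in diaphragm with smaller and overlapping differences. The median of Hoxb5 was 1.31 CPM in diaphragm and 0.665 in hind limb (log2 difference 1.03, SE 0.06). Hoxb7 was a gene of low count, with medians of 0.468 and 0.179 CPM (log2 difference 1.40, SE 0.09), and at 12 months alone its log2 difference was 0.45 and was not called (limma-voom adjusted p = 0.138). All 5 members that were higher in diaphragm belong to Hoxa or Hoxb. No tested member of Hoxc or Hoxd was called higher in diaphragm, and no tested member of Hoxb was called lower.

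Hoxc10, which takes part in patterning the lumbar region and the hind limb, was high in every hind limb library. It ranged from 41.2 to 96.1 CPM in gastrocnemius (median 68.0), from 36.1 to 70.3 in soleus (median 55.5) and from 34.3 to 81.9 in tibialis anterior (median 66.1). In diaphragm the median was 0.0487 CPM, 25 of 83 libraries had no count, and the highest library was replicate 11 at 18 months with 2.16 CPM. Every hind limb library lay above every diaphragm library. The pooled level in hind limb was 464 times that in diaphragm (95% interval from counting error 420 to 513), and 720 times (636 to 818) without the diaphragm library that stood apart.

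Hoxc11, also a gene of the lumbosacral region and hind limb, showed a still sharper separation. Its medians were 23.9 CPM in gastrocnemius, 23.7 in soleus and 14.8 in tibialis anterior, and the lowest hind limb library had 10.7 CPM. In diaphragm 82 of 83 libraries had no count, and the 41 counts of the muscle all lay in the library that stood apart. The pooled ratio of hind limb to diaphragm was 1526 (1125 to 2127) with that library, and at least 20380-fold without it, taking a floor of 3 counts over the group. In the hind limb libraries there were between 16.1 and 65.1 counts of Hoxc11 per 100 counts of Hoxc10, with a median of 34.8. The library that stood apart had 27.7, while the other 82 diaphragm libraries held 0 counts of Hoxc11 beside 251 of Hoxc10.

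Hoxa11, which is required for the middle segment of the limb, had medians of 3.29 CPM in gastrocnemius, 2.38 in soleus and 5.02 in tibialis anterior and was at 0 in 80 of 83 diaphragm libraries. The lowest hind limb library had 1.27 CPM and the highest diaphragm library 0.0508. The pooled ratio was 1790 (822 to 4878), from 6 diaphragm counts. The fitted log2 differences of Hoxa11 (-7.75), Hoxc10 (-9.90) and Hoxc11 (-10.36) depend on the prior count of 0.5 and are not bounds. All 3 were called (limma-voom adjusted p = 2.88e-124, 1.49e-189 and 1.96e-136). None of the 3 passed the filter in the diaphragm's own fit. They entered this fit through the hind limb, where they are high, so their p-values depend on the prior count too.

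**Figure D2:**
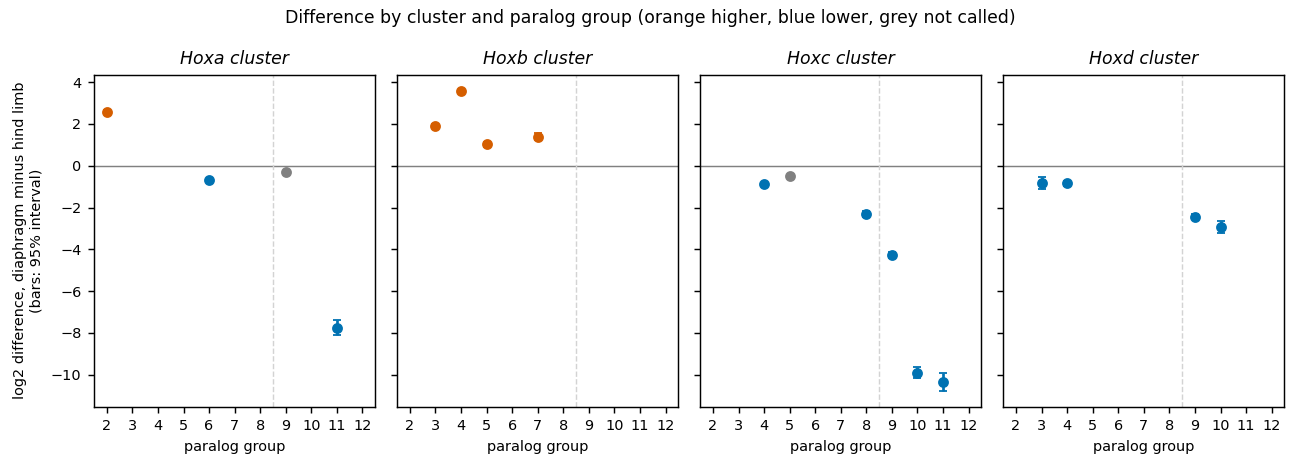
Log2 difference between diaphragm and the mean of the 3 hind limb muscles, averaged over ages, for the 18 members tested, by cluster (panels) and paralog group (x axis), with 95% intervals. Points above 0 (orange) are higher in diaphragm, blue points lower and grey points were not called. In Hoxc the difference is -0.87 at Hoxc4 and grows from -0.50 at Hoxc5 to -10.36 at Hoxc11.

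Along the Hoxc cluster the hind limb excess was larger for each tested gene from group 5 onwards. The log2 difference was -0.87 for Hoxc4 (SE 0.03), -0.50 for Hoxc5 (SE 0.03), -2.32 for Hoxc8 (SE 0.07) and -4.27 for Hoxc9 (SE 0.07), before the values of Hoxc10 and Hoxc11 above. Hoxc9, a gene of the thoracic and lumbar region, ranged from 0.0732 to 1.596 CPM in diaphragm (median 0.727), below every hind limb library, of which the lowest had 6.66 CPM. The pooled ratio of Hoxc9 was 18.0 (17.3 to 18.8). Hoxc8 was called and overlapped, with 0.182 to 1.74 CPM in diaphragm and a lowest hind limb library of 1.14. Hoxc5 had an adjusted p of 7.13e-38 in limma-voom and missed the fold threshold, at 1.42-fold.

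Hoxd9 and Hoxd10, which pattern the upper limb segments and the lumbar motor neurons, were lower in diaphragm than in the mean of the hind limb muscles. Hoxd9 ranged from 0.378 to 2.45 CPM in diaphragm (median 1.10) and from 0.568 to 42.3 in hind limb (median 6.50), with a log2 difference of -2.43 (SE 0.07; limma-voom adjusted p = 4.31e-112). Hoxd10 ranged from 0 to 0.459 CPM in diaphragm (median 0.109, 11 libraries at 0) and from 0 to 8.06 in hind limb (median 1.01), with a log2 difference of -2.94 (SE 0.15; limma-voom adjusted p = 1.39e-53). Like Hoxd3, it did not pass the filter in the diaphragm's own fit, so the fitted differences and p-values of both genes depend on the prior count. The diaphragm libraries of Hoxd9 overlapped with those of the tibialis anterior, and those of Hoxd10 with the tibialis anterior and the soleus, whose lowest library had 0.347 CPM of Hoxd10. Hoxd3 and Hoxd4 each had a log2 difference of -0.84 (SE 0.15 and 0.06) and overlapped. Both lost the call without the gastrocnemius.

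Hoxa6 had medians of 1.67 CPM in diaphragm and 2.86 in hind limb and a log2 difference of -0.70 (SE 0.04; limma-voom adjusted p = 3.16e-48), with overlapping groups. Its call was lost under total-count scaling and without the gastrocnemius, with a log2 difference of -0.47 in both. Hoxa9 missed the fold threshold, at 1.24-fold lower in diaphragm (limma-voom adjusted p = 4.07e-20). Total-count scaling shifted the median of all genes by 0.22 relative to the main scaling and turned no member's call to the other direction.

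Between diaphragm and hind limb, 2 of 18 members had every diaphragm library above every hind limb library (Hoxa2 and Hoxb4), beside 0.274% of all genes tested. The reverse held for 4 members (Hoxa11, Hoxc9, Hoxc10 and Hoxc11), beside 0.0782% of all genes. Of these 4, only Hoxc9 passed the filter in the diaphragm's own fit, and the others were tested through the hind limb, where they are high. The remaining 12 overlapped. Read at each age alone, 15, 16, 16, 15, 17, 14 and 14 members were called from the youngest age to the oldest, beside 22.2%, 22.6%, 20.7%, 22.8%, 21.4%, 22.8% and 24.1% of all genes. The log2 difference of Hoxb4 stayed between 3.34 and 3.83 and that of Hoxa2 between 2.50 and 2.83 over the 7 ages.

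The 7 members that did not pass the filter were close to the limit of detection in all muscles. Hoxb8 had 142 counts over the 83 diaphragm libraries and 120 over the 242 hind limb libraries, and was at 0 in 33 and 188 of them. Hoxb9 had 2 and 106 counts, and both genes were called when no filter was applied. The last genes of the clusters were barely seen, with 29 and 154 counts of Hoxd13, 4 and 1 of Hoxd12, 0 and 26 of Hoxc12 (22 of them in gastrocnemius) and 0 and 5 of Hoxb13. Hoxd1, a group 1 gene, had 3 and 16 counts.

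The share of all Hox counts that came from paralog groups 9 to 13 was taken as a summary of each library. It ranged from 8.89% to 21.7% in diaphragm (median 15.4%), from 78.0% to 86.9% in gastrocnemius (median 82.9%), from 62.6% to 80.4% in soleus (median 72.9%) and from 73.7% to 84.5% in tibialis anterior (median 81.5%). No diaphragm library came near the lowest hind limb library. The counts were not corrected for gene length, and the share is a description without a test. From 6 to 27 months its median went from 13.7% to 17.3% in diaphragm from 75.0% to 68.8% in soleus, from 82.8% to 82.1% in gastrocnemius and from 82.2% to 80.3% in tibialis anterior.

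**Figure D3:**
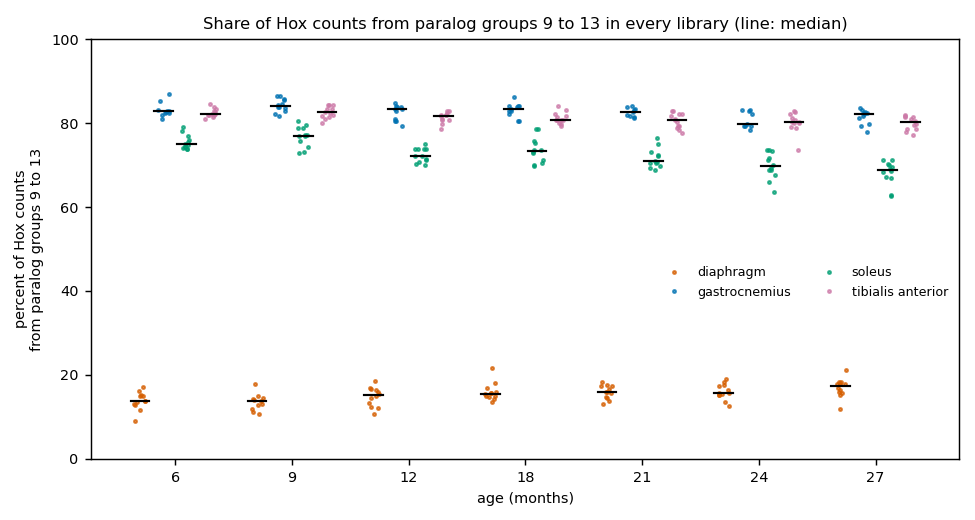
Percent of the Hox counts of each library (points) that came from paralog groups 9 to 13, by age in months (x axis) and muscle (colour), with the group median as a line. The 83 diaphragm libraries lie between 8.89% and 21.7% and the 242 hind limb libraries between 62.6% and 86.9%.

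Set against each hind limb muscle in turn, the diaphragm kept the same 5 members higher (Hoxa2, Hoxb3, Hoxb4, Hoxb5 and Hoxb7), while the members that were lower differed by muscle. Against gastrocnemius, 16 of 18 members were called, 5 higher and 11 lower, beside 34.8% of all genes (18.9% higher, 16% lower). Against soleus the count was again 16 (5 and 11), beside 24.8% (14.4% and 10.4%). Against tibialis anterior it was 11 (5 and 6), beside 33.3% (21.1% and 12.2%). These 3 comparisons share the diaphragm libraries. In each, Hoxa11, Hoxc10 and Hoxc11 are among the lower members, although none of them passed the diaphragm's own filter.

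The smaller count against tibialis anterior came with the Hoxd genes. The log2 difference between diaphragm and tibialis anterior was -0.20 for Hoxd9 (95% interval -0.37 to -0.04) and 0.02 for Hoxd10 (-0.38 to 0.42). It was -0.17 for Hoxd4 (-0.32 to -0.02) and -0.24 for Hoxd3 (-0.61 to 0.12). None of the 4 was called, and the intervals of Hoxd4 and Hoxd9 lie within the 1.5-fold threshold on both sides. Hoxd3 and Hoxd10 did not pass the filter on low counts in either muscle's own fit and entered this fit through the other muscles. Their values here depend on the prior count and bound no difference. Hoxc4 and Hoxc5 were not called either, with -0.37 (-0.44 to -0.30) and -0.01 (-0.09 to 0.07). Hoxa11, Hoxc10 and Hoxc11, in contrast, separated the tibialis anterior from the diaphragm in every library.

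**Figure D4:**
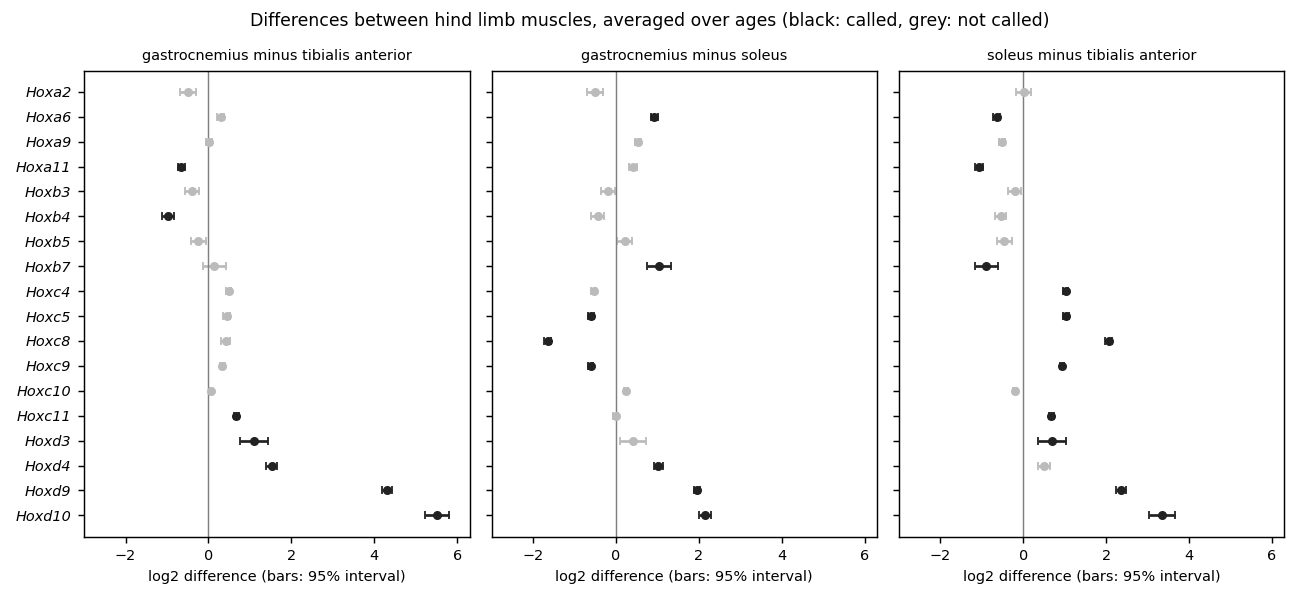
Log2 differences of the 18 members tested between pairs of hind limb muscles, averaged over ages, with 95% intervals; called members are black and others grey. Hoxd10 and Hoxd9 stand farthest from 0 in both comparisons with tibialis anterior, at 5.51 and 4.32 for gastrocnemius and 3.35 and 2.36 for soleus.

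The 3 hind limb muscles differed among themselves, most at the Hoxd genes and Hoxc8. Hoxd9 had a median of 26.5 CPM in gastrocnemius (14.8 to 42.3), of 6.80 in soleus (3.20 to 10.6) and of 1.32 in tibialis anterior (0.568 to 2.70). The 3 muscles did not overlap, and the order of the levels was gastrocnemius, soleus, tibialis anterior. Hoxd10 followed the same order, with medians of 4.84 CPM in gastrocnemius (2.20 to 8.06), 1.09 in soleus (0.347 to 3.11) and 0.120 in tibialis anterior (0 to 0.653, with 9 libraries at 0). Its gastrocnemius libraries lay above every tibialis anterior library and overlapped with soleus.

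Between gastrocnemius and tibialis anterior, 7 of 18 members were called, 5 higher and 2 lower in gastrocnemius, beside 14.2% of all genes (10.5% higher, 3.70% lower). Hoxd10 differed by 5.51 on the log2 scale (SE 0.15; limma-voom adjusted p = 8.22e-112) and Hoxd9 by 4.32 (SE 0.06; 3.99e-183), which ranked 3 and 6 among the absolute differences of the 12784 genes. Hoxd4 was higher by 1.52 (SE 0.07) and Hoxd3 by 1.10 (SE 0.17). All 4 tested Hoxd genes were thus higher in gastrocnemius than in tibialis anterior. Hoxd3 and Hoxd10 did not pass the filter in the tibialis anterior's own fit, so their fitted values against that muscle depend on the prior count. Hoxb4 and Hoxa11 were lower, with log2 differences of -0.98 and -0.66, and Hoxc11 was higher by 0.67. Hoxd9 and Hoxd10 were the 2 members without overlap, beside 0.415% of all genes for the same direction.

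Between soleus and tibialis anterior, 11 of 18 members were called, 8 higher and 3 lower in soleus, beside 42% of all genes (23.2% higher, 18.7% lower). Hoxc8, a gene of the brachial and thoracic region, ranged from 5.62 to 14.5 CPM in soleus (median 9.40), above every tibialis anterior library (1.14 to 3.58, median 2.21). It differed by 2.06 (SE 0.05; limma-voom adjusted p = 1.46e-135), beside 3.35 for Hoxd10 (SE 0.16), 2.36 for Hoxd9 (SE 0.07) and -1.07 for Hoxa11 (SE 0.05). Hoxc4, Hoxc5 and Hoxc9 were also higher in soleus, by 1.02, 1.04 and 0.94. Hoxc8 and Hoxd9 were without overlap, beside 2.52% of all genes for the same direction.

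Between gastrocnemius and soleus, 8 of 18 members were called, 5 higher and 3 lower in gastrocnemius, beside 42.7% of all genes (20.8% higher, 22.0% lower), a share close to that of the members. Hoxd10 was higher in gastrocnemius by 2.16 (SE 0.07; limma-voom adjusted p = 2.23e-91), Hoxd9 by 1.96 (SE 0.04; 4.26e-156), Hoxd4 by 1.03 (SE 0.06) and Hoxb7 by 1.03 (SE 0.15). Hoxb7 did not pass the filter in the soleus's own fit. Its fitted values and calls here and in the other comparisons with soleus thus depend on the prior count. Hoxc8 had a log2 difference of -1.65 (SE 0.04; 1.38e-116). Every gastrocnemius library lay above every soleus library for Hoxd9 and below every one for Hoxc8, beside 6.91% of all genes without overlap in either direction. Hoxc10 was higher in gastrocnemius by 0.25 (95% interval 0.21 to 0.29) and the interval of Hoxc11 was -0.06 to 0.06, both within the 1.5-fold threshold.

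Fibre type and connective tissue also differed between the hind limb muscles, and their markers were highest in soleus. Hoxc8 was highest in soleus too, whereas Hoxd9 and Hoxd10 were highest in gastrocnemius. The slow myosin gene Myh7 had a median of 47514 CPM in soleus, 8991 in gastrocnemius and 2204 in tibialis anterior. Of 13 tested connective tissue genes 11 were called higher and 1 lower in soleus than in tibialis anterior, beside 23.2% and 18.7% of all genes. In gastrocnemius 1 of the 13 was called higher and 6 lower than in soleus, beside 20.8% and 22.0%. The part of fibre type or connective tissue in the Hox differences was not tested beyond a fit with the connective tissue score as a covariate. In that fit the counts of members called stayed within 1.5 times in every comparison of muscles. The gastrocnemius libraries carry a series of description numbers of their own, so that this series and the muscle cannot be told apart.

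Hox proteins bind DNA with the partner homeodomain proteins Pbx, Meis and Pknox. Of 9 such genes, 8 were tested between diaphragm and hind limb, and 2 were called, both higher in diaphragm, beside 14.0% of all genes called higher. Meis2 ranged from 28.3 to 59.6 CPM in diaphragm (median 49.0) and from 0.102 to 5.04 in hind limb, with medians of 2.68 in gastrocnemius, 2.86 in soleus and 0.508 in tibialis anterior. The groups did not overlap, and the log2 difference was 4.96 (SE 0.03; limma-voom adjusted p = 2.8e-294). Within the hind limb Meis2 was higher by 2.40 in gastrocnemius and by 2.54 in soleus than in tibialis anterior. Meis1 ranged from 10.02 to 15.8 CPM in diaphragm (median 12.9) and from 2.22 to 9.42 in hind limb (median 6.12), again without overlap, with a log2 difference of 1.06 (SE 0.02).

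Polycomb proteins keep silent Hox genes silent, and trithorax proteins keep active ones active. Of 27 tested Polycomb genes only Cbx2 was called between diaphragm and hind limb, higher by 1.12 (SE 0.06) in diaphragm. In this comparison 21.5% of all genes were called. Of 10 tested trithorax and H3K27 demethylase genes 0 were called by limma-voom, with differences from -0.47 to 0.11, although 6 had an adjusted p under 0.05. Among the genes that flank the clusters, 7 were tested and 2 were called, Skap1 beside Hoxb (1.37) and Skap2 beside Hoxa (0.61), both higher in diaphragm. The share of all genes called higher was 14.0%. Of the noncoding genes of the clusters 1 was tested, RGD1564419, by its RefSeq synonym the antisense gene of Hoxa11, which was at 0 in 82 of 83 diaphragm libraries and had a median of 1.42 CPM in hind limb (log2 difference -6.32). RGD1564419 did not pass the filter in the diaphragm's own fit and entered this fit through the hind limb. Its fitted difference thus depends on the prior count and is not a bound. The setting of strand in the counting is not given in the sources used here, so that reads of Hoxa11 and of its antisense partner cannot be told apart.

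Genes of cells other than muscle fibres also differed between diaphragm and hind limb. All 6 tested mesothelial genes were called higher in diaphragm than in the hind limb mean, beside 14.0% of all genes. Msln ranged from 2.33 to 65.6 CPM in diaphragm (median 25.4). Against gastrocnemius and against tibialis anterior alone, 5 of 6 were called higher, beside 18.9% and 21.1% of all genes. Only 2 of the 6 passed the filter in the gastrocnemius's own fit, 3 in the soleus's and 1 in the tibialis anterior's. Those that did not pass were tested through other muscles, above all the diaphragm, so their fitted values depend on the prior count. Krt18 overlapped, with medians of 0.650 CPM in diaphragm, 0.543 in gastrocnemius and 0.404 in tibialis anterior. Its highest libraries had 2.82, 19.5 and 32.1 CPM in these muscles. In the 3 diaphragm libraries with the lowest summed mesothelial level (8.06, 9.92 and 10.5 CPM) Hoxb4 was at 10.6, 13.6 and 11.8 CPM, and Hoxa2 at 2.96, 4.52 and 4.18. Even these 3 libraries lay above the median mesothelial level of each hind limb muscle, so they do not show the Hox levels of diaphragm without mesothelium. Over all genes tested, 14.0% were called higher and 7.45% lower in diaphragm than in the hind limb mean. Of the connective tissue genes 3 of 13 were called higher and 1 lower, and of satellite cell genes 4 of 9 higher. Of Schwann cell genes 5 of 8 were called higher and of macrophage genes 3 of 8. Of adipocyte genes 4 of 6 were called higher and of endothelial genes 1 of 8, whereas 4 of 6 tendon genes were lower. The part of these cells in the Hox levels was not tested.

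With age the called changes of Hox genes were few. With the main scaling, all but 1 of those at 27 months were decreases of genes of groups 9 to 11 in hind limb, but most of these decreases were not called under total-count scaling. With that scaling the calls at 27 months were Hoxa11 and Hoxd3 in gastrocnemius, Hoxa9 in soleus and Hoxa9 in tibialis anterior, of which Hoxd3 and both calls of Hoxa9 were increases. At 9, 12 and 18 months against 6 months, 0 of 192 tests of members over the 4 muscles were called in limma-voom, beside 1.43% of all genes over the same comparisons, with 43 at an unadjusted p under 0.05 and 12 at an adjusted p under 0.05 without the fold. At 27 against 6 months, 3 of 18 members were called in gastrocnemius (22.8% of all genes), 1 of 17 in soleus (15%), 3 of 16 in tibialis anterior (27.6%) and 0 of 13 in diaphragm (7.52%). None of these shares exceeded the share of all genes. In diaphragm 4 members had an unadjusted p under 0.05, and edgeR and DESeq2 also called 0.

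**Figure D5:**
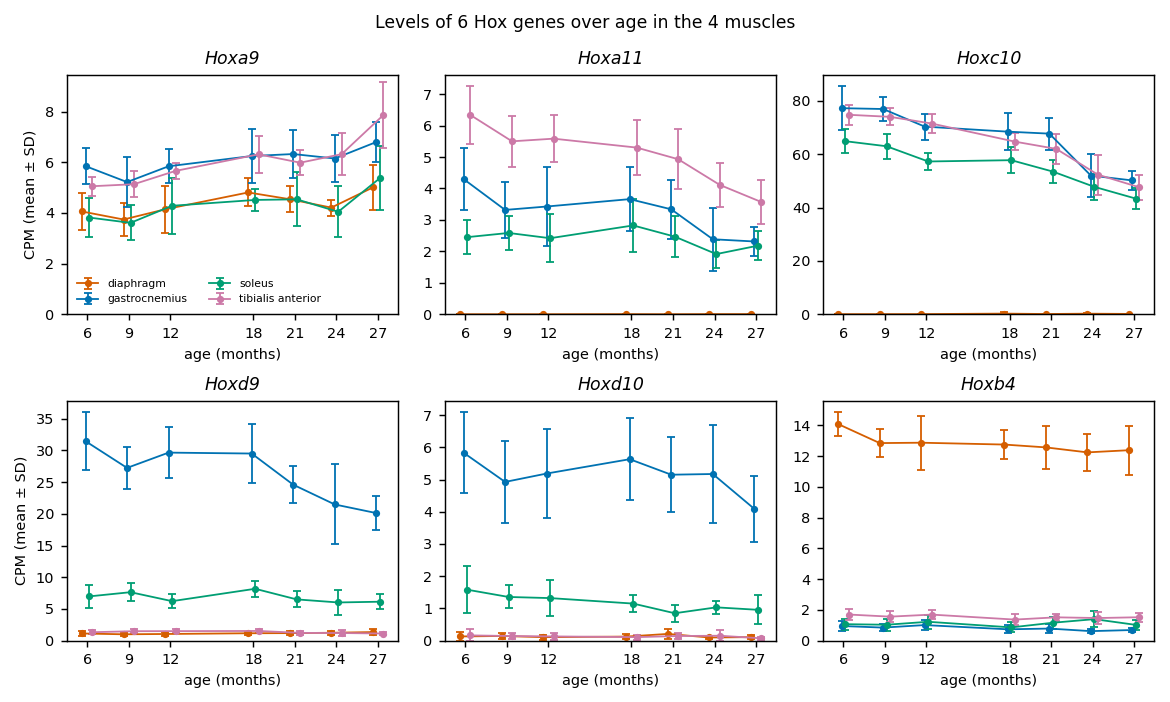
Mean level (CPM, with SD bars) of 6 Hox genes at each age in months in the 4 muscles; 9 to 13 libraries per point. Hoxc10 declines in all 3 hind limb muscles while its diaphragm level stays near 0, Hoxa11 declines in gastrocnemius and tibialis anterior, and Hoxa9 rises.

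Hoxc10 declined in the hind limb. In tibialis anterior it ranged from 69.1 to 81.9 CPM at 6 months (median 73.8) and from 40.4 to 53.8 at 27 months (median 47.2). The medians at the ages between were 74.8, 72.9, 63.9, 62.6 and 54.8 CPM at 9, 12, 18, 21 and 24 months. The 27-month libraries lay below all 6-month libraries, and the change was -0.65 on the log2 scale (SE 0.05; limma-voom adjusted p = 3.51e-19). In gastrocnemius the range moved from 66.9 to 96.1 CPM (median 75.9) to 43.3 to 57.1 (median 50.8), with a change of -0.61 (SE 0.06; limma-voom adjusted p = 2.59e-15). In soleus it moved from 58.3 to 70.3 CPM (median 66.7) to 36.4 to 51.3 (median 43.6). The groups again did not overlap, and the change of -0.57 (limma-voom adjusted p = 8.96e-18) missed the fold threshold. The share of all genes without overlap between 6 and 27 months was not computed, so separations by age here and below cannot be called unusual.

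The size of this decline depended on the scaling. Under total-count scaling the median of all genes shifted by 0.32 in tibialis anterior, 0.28 in gastrocnemius, 0.15 in soleus and 0.04 in diaphragm relative to the main scaling, and the change of Hoxc10 was -0.33 in both tibialis anterior and gastrocnemius, where it was no longer called. The direction was the same. The summed connective tissue level had medians of 3490 and 1929 CPM at 6 and 27 months in gastrocnemius, 4430 and 3387 in soleus, 1592 and 1432 in tibialis anterior and 2941 and 1648 in diaphragm. Of the 13 genes in this sum, 1 was called higher and 2 lower in gastrocnemius, 2 lower in soleus, 2 higher in tibialis anterior and 4 lower in diaphragm, and their median log2 change was 0.10, 0.17, 0.08 and -0.38. Hoxc10 was still called in gastrocnemius and tibialis anterior with the connective tissue score in the fit. Macrophage genes rose, with 8 of 8 called in gastrocnemius and in tibialis anterior, beside 22.8% and 27.6% of all genes. The part of macrophages in the Hox changes was not tested.

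Hoxa11 declined in the muscles where its level was highest. In tibialis anterior the range moved from 5.00 to 7.55 CPM at 6 months (median 6.48) to 2.45 to 4.83 at 27 months (median 3.59), without overlap, a change of -0.84 (SE 0.10; limma-voom adjusted p = 4.26e-11). In gastrocnemius it moved from 2.60 to 5.71 CPM (median 4.33) to 1.77 to 3.53 (median 2.18), with overlap, a change of -0.87 (SE 0.18; limma-voom adjusted p = 1.92e-05). Both were already called at 24 months, at -0.64 and -0.85, where 1 of 16 members in tibialis anterior (14.5% of all genes) and 3 of 18 in gastrocnemius (18.8%) were called. The other 2 in gastrocnemius at 24 months were Hoxa2 (-0.64) and Hoxb4 (-0.63). In soleus the median of Hoxa11 was 2.39 CPM at 6 months and 2.20 at 27 months, and the change of -0.15 (95% interval -0.43 to 0.14) was not called. The call in tibialis anterior at 27 months was lost under total-count scaling (-0.51), and that in gastrocnemius under Bonferroni adjustment.

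Hoxd9 declined in gastrocnemius, its muscle of highest level, from 25.6 to 42.3 CPM at 6 months (median 31.4) to 17.7 to 25.1 at 27 months (median 18.8). No 27-month library reached the lowest 6-month library, and the change was -0.63 (SE 0.09; limma-voom adjusted p = 3.14e-08), or -0.35 and not called under total-count scaling. Hoxd10 declined in soleus, from 0.615 to 3.11 CPM (median 1.35) to 0.376 to 1.88 (median 0.882), with wide overlap and a change of -0.69 (SE 0.21; limma-voom adjusted p = 0.00406), or -0.56 and not called under total-count scaling. It was the single member called in soleus at 21 months too (-0.75; 1 of 17, beside 2.61% of all genes).

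Hoxa9, a gene of the trunk and upper limb, was the one member whose level was called higher at 27 months with the main scaling, and in 1 muscle. Under total-count scaling it was called in soleus too, and Hoxd3 in gastrocnemius. In tibialis anterior it ranged from 4.74 to 5.75 CPM at 6 months (median 4.87) and from 6.28 to 10.8 at 27 months (median 7.70). All 27-month libraries lay above all 6-month libraries, a separation not set against all genes, and the change was 0.63 (SE 0.06; limma-voom adjusted p = 1.06e-14). In the other muscles it had adjusted p-values under 0.05 and missed the fold threshold, with changes of 0.52 in soleus, 0.21 in gastrocnemius and 0.29 in diaphragm. In diaphragm the other members with an adjusted p under 0.05 at 27 months were Hoxa2 (-0.26), Hoxb3 (-0.21) and Hoxb4 (-0.24), whose median went from 14.1 to 12.2 CPM.

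Whether the change from 6 to 27 months differed between muscles was tested as an interaction in the fit of all libraries. Between diaphragm and the mean of the hind limb muscles, 2 of 18 members were called (15.5% of all genes). Hoxc10 differed by 2.52 (SE 0.53; limma-voom adjusted p = 1.47e-05) and Hoxd9 by 0.64 (SE 0.24; limma-voom adjusted p = 0.0163), and Hoxd9 was at 0.38 and not called under total-count scaling. In diaphragm Hoxc10 did not pass that muscle's own filter on low counts and entered this fit through the hind limb. It held 11 counts at 6 months in 4 of 12 libraries and 56 at 27 months in 11 of 12. The fitted differences of Hoxc10, their p-values and calls thus depend on the prior count and are given as values only. The pooled ratio of 27 to 6 months there was 4.37 (2.27 to 9.25), and that of 24 to 6 months 8.11 (4.32 to 16.8, from 90 counts). Without the library that stood apart, the 18-month libraries held 33 counts. Against each hind limb muscle alone the difference of Hoxc10 was 2.52 for gastrocnemius, where Hoxd9 was called too (0.92; 2 of 18, beside 21.6% of all genes), 2.48 for soleus (1 of 18, beside 11.9%) and 2.56 for tibialis anterior (1 of 18, beside 20.3%).

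Within the hind limb, Hoxa11 and Hoxc4 changed differently in soleus than in the other muscles. Hoxc4, a gene of the neck and shoulder region, went from a median of 13.3 to 15.9 CPM in soleus, from 10.7 to 8.43 in gastrocnemius and from 7.70 to 6.14 in tibialis anterior. The change in gastrocnemius minus that in soleus was -0.67 for Hoxc4 (limma-voom adjusted p = 1.08e-07) and -0.72 for Hoxa11 (limma-voom adjusted p = 9.46e-04), the 2 members called of 18 (14.5% of all genes). The change in soleus minus that in tibialis anterior was 0.65 for Hoxc4 (limma-voom adjusted p = 8.14e-07) and 0.68 for Hoxa11 (limma-voom adjusted p = 5.81e-04), again 2 of 18 (15.8% of all genes). Between gastrocnemius and tibialis anterior 0 of 18 were called (7.32% of all genes), with 2 at an unadjusted p under 0.05 in limma-voom.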

How the data were processed

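RNA of muscle kept in RNAlater was made into strand-specific total RNA libraries after removal of ribosomal RNA and sequenced in pairs. The authors aligned and counted the reads with the ArrayStudio pipeline on the rat B6.0 reference and a RefSeq-based gene model, and deposited raw counts per gene, 1 file a library. The assignment of reads shared by overlapping or neighbouring genes, which Hox clusters hold, is not given in the sources used here. Count lines of one symbol were summed (17870 lines, 17315 symbols). Hoxa6, Hoxa9 and Hoxa11 had 2 lines each, equal in 322, 313 and 315 libraries. No 2 libraries of a group differed by as little as sampling noise (smallest mean chi-square per gene 7.99).

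Counts were filtered with filterByExpr (edgeR 4.0.16; minimum count 10, minimum total 15), scaled by TMM and fitted with limma-voom (limma 3.58.1, R 4.3.3). Contrasts of muscles and the interactions came from 1 fit of 28 groups (12784 genes), and contrasts of age from 1 fit for each muscle. A call needed a two-sided Benjamini-Hochberg adjusted p under 0.05 over all genes and over 1.5-fold. CPM use TMM-scaled library sizes and compare libraries, not genes, since gene length is not included; log2 values use a prior count of 0.5. Intervals of pooled ratios are exact at 95% and cover counting error only. The tests were checked on simulated data. edgeR's quasi-likelihood test, DESeq2 1.42.0 and further alternatives are in the closing section. Statistics were given for the largest called differences in each cluster and direction, the 4 largest in each pair of hind limb muscles, and every member called at 27 months or in an interaction; other members are summarised. The members, gene lists and tests were chosen with earlier results of these data known. The library that stood apart was noticed in the data, and its removal was added after seeing them.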

Additional observations from a re-analysis of the deposited data

Results flagged for a closer look

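Only the gastrocnemius at 6, 21 and 24 months had groups small enough for Dixon's test, so the other muscles were not examined. The test takes the gap to the nearest library over the range of the group. Single libraries stood apart in 4 of the 42 groups of named members tested, where chance gives about 1 in 20. They were the highest libraries of Hoxc11 at 24 months (27.5 CPM, replicate 3; the next had 20.6), of Hoxd10 at 21 months (7.97 CPM, replicate 0; next 5.41), of Hoxd3 at 24 months (0.686 CPM, replicate 2; next 0.415) and of Hoxd9 at 6 months (42.3 CPM, replicate 4; next 33.8).

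For 4 members the 27-month change was called unequal across muscles by interaction tests. The log2 change of Hoxc10 in diaphragm exceeded that in the mean of the hind limb muscles by 2.52, in gastrocnemius by 2.52, in soleus by 2.48 and in tibialis anterior by 2.56. These values depend on the prior count, since Hoxc10 did not pass the diaphragm's own filter and held 11 counts there at 6 months, in 4 of 12 libraries, and 56 at 27 months. The change of Hoxd9 in diaphragm exceeded that in the hind limb mean by 0.64 and gastrocnemius by 0.92. The change in gastrocnemius minus that in soleus was -0.72 for Hoxa11 and -0.67 for Hoxc4, and the change in soleus minus that in tibialis anterior 0.68 and 0.65.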

How the results depend on the processing

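Over the alternatives run, 156 of the recomputed counts of members called stayed within 1.5 times of the value reported and 13 did not, and of the recomputed values of named members 364 kept their direction and their side of the threshold, 22 lost the call and 0 turned. With a 2-fold threshold, 7 members were lower in diaphragm, 5 were called between gastrocnemius and soleus, 4 between gastrocnemius and tibialis anterior and 6 between soleus and tibialis anterior, 0 at 27 against 6 months in gastrocnemius, soleus and tibialis anterior, and 1 in the interaction between diaphragm and hind limb. With no filter, Hoxc10 was called in diaphragm at 27 months (1 member). With Bonferroni adjustment the count was 0 in soleus at 27 months and 1 in the interaction, and with total-count scaling 1 in tibialis anterior at 27 months and 1 in the interaction. RLE size factors, edgeR, DESeq2, the connective tissue covariate and leaving out the third series of description numbers, where run, or the diaphragm library that stood apart moved no count past 1.5 times.

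Replicate numbers do not mark a known shared animal. Same-numbered libraries of different muscles deviated together weakly (median correlation 0.129 over 468 pairs, 55.6% over 0.1, against -0.0169 for different numbers), and a library correlated best with its own number in 332 of 936 comparisons. The fit of all libraries was repeated with age and replicate number together as a block. Its counts of members called were the same as without the block, among them 16 between diaphragm and hind limb and 2 in the interaction. In the fits of age within a muscle, the block joined libraries of different ages, which come from different rats. The unchanged counts there (3 in gastrocnemius, 1 in soleus and 3 in tibialis anterior at 27 months) thus say nothing about shared animals. Depth limits Hoxb8, Hoxb9, Hoxb13, Hoxc12, Hoxd1, Hoxd12 and Hoxd13, which were not tested, and the diaphragm values of Hoxa11, Hoxc10 and Hoxc11.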

Other observations

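Null, straight-line and logistic models of the log2 level on age, compared by BIC as a description, gave no trend for 11 of 13 members in diaphragm, 9 of 18 in gastrocnemius, 12 of 17 in soleus and 10 of 16 in tibialis anterior. Hoxa9 had a rising line in all 4 muscles, with slopes of 0.16, 0.16, 0.23 and 0.30 log2 units per year in diaphragm, gastrocnemius, soleus and tibialis anterior. Hoxc10 had a falling logistic curve in gastrocnemius (inflection at 21.75 months) and tibialis anterior (22.75 months) and a falling line in soleus. Hoxb4 had a falling line in diaphragm (-0.10 per year).

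Of the 27 Polycomb genes tested, 3 were called higher and 4 lower in tibialis anterior at 27 against 6 months (limma-voom), where 27.6% of all genes were called, 1 higher and 1 lower in gastrocnemius (22.8%), Rnf2 alone in diaphragm (-0.63; 7.52%), and 0 in soleus (15%), where 13 had an adjusted p under 0.05. The difference between muscles was not tested. Phc1, a subunit of a Polycomb repressive complex, had log2 changes of -1.26 in tibialis anterior and -1.17 in gastrocnemius, and Pcgf2, another subunit, was higher by 1.18 and 0.89. The cofactor gene Pbx3 was higher by 0.75 in tibialis anterior at 27 months.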
